A study of Drosophila melanogaster with 24 samples.

Results

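The spots described here gave a low signal in the antenna of Drosophila melanogaster and a higher signal in both the first legs and the proboscis. They are 63 of the 22575 spots on the arrays, or 0.279% of them. A spot was taken when 3 conditions held on a log2 signal (spot minus local background, floored at 0, plus 50, quantile normalised over all samples). All 8 antenna values lay below all 16 leg and proboscis values, the antenna mean lay at least 0.7 below the nearer of the other tissue means, and this gap was at least as large as the difference between legs and proboscis. The members were thus chosen by their measured tissue levels, the low antenna signal is the reason for the choice and not a result, and the legs and proboscis were held near each other by the last condition. The deposited files pair no spot with a gene or a probe sequence, so the members are given by spot number and by row and column on the array, and their genes are not named.

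The study measured RNA from the antenna (the third antennal segment with the arista), the front legs from the distal tibia downward, and the proboscis of adult flies 1 to 2 hours after they emerged from the pupal case. Each tissue was taken from males and females in 4 samples, which gave 6 groups of 4 and 8 samples per tissue. The series text names the isogenic line WI89, while the sample labels carry RIL 58 or RIL 89, here called the line number. RNA was amplified by reverse transcription and T7 transcription, labelled with Cy3 or Cy5 in 12 samples each, and nothing in the labels says that replicates came from separate flies. The p-values therefore cover only the variation among the samples at hand, technical variation included.

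The antenna of the fly is its main organ of smell, and the segment sampled here carries olfactory hairs but no muscle of its own. The distal leg and the proboscis carry taste bristles, and they also hold muscles or tendons that move the tarsus and the mouthparts. All 3 are serially related appendages, and antennal identity is known to depend on the absence of the Hox activity that specifies legs and mouthparts. In whole dissected organs, fewer cells of a type and less RNA per cell cannot be told apart.

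Identical quality marks at every spot placed the 24 samples in 12 pairs, each a Cy3 and a Cy5 sample, taken here as the channels of 12 arrays. Across all spots the channels correlated at 0.547 to 0.709 on 8 arrays and at 0.835 to 0.961 on the other 4, called the low and the high set below. The number of arrays limits the precision of every value. Levels below are normalised log2 signals after normexp background correction and quantile normalisation, on which the median of all spots was 6.28 in every sample, and differences are those of a limma model unless stated otherwise.

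In the antenna the members' mean signals ran from 6.16 to 10.08 with a median of 6.97, in the first legs from 7.35 to 12.04 with a median of 8.65, and in the proboscis from 7.12 to 13.30 with a median of 8.66. Whether a spot was detected was not tested, but the members were not all dim in the antenna. By spot brightness, which also depends on the probe, 20 of the 63 members stood in the brightest 10% of all spots in the antenna, and 4 stood below the median of all spots. In the first legs 63 members stood in the brightest 10%, and in the proboscis 61 did.

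Sample by sample, the median over the members was 6.70 at its lowest, 6.95 at its median and 7.25 at its highest among the 8 antennae. Among the 8 leg samples the corresponding values were 8.16, 8.56 and 9.57, and among the 8 proboscis samples 8.04, 8.80 and 9.29. The antennae thus lay below all other samples, and the leg and proboscis samples overlapped over most of their range. Together the members gave 0.323% to 0.853% of the summed background-subtracted signal of an antenna sample (median 0.462%), 1.45% to 6.15% of a leg sample (median 2.54%) and 1.25% to 4.79% of a proboscis sample (median 2.53%). The share split by dye: Cy3 leg samples gave 1.45% to 1.82% and Cy5 ones 3.26% to 6.15%, and Cy3 proboscis samples gave 1.25% to 2.16% and Cy5 ones 2.91% to 4.79%, so both medians fall between the dyes. Local background at the members was close to that of all spots in each tissue, with medians over samples of 59.7 and 59.5 intensity units in the antenna and 60.1 and 59.7 in the legs.

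**Figure D1:**
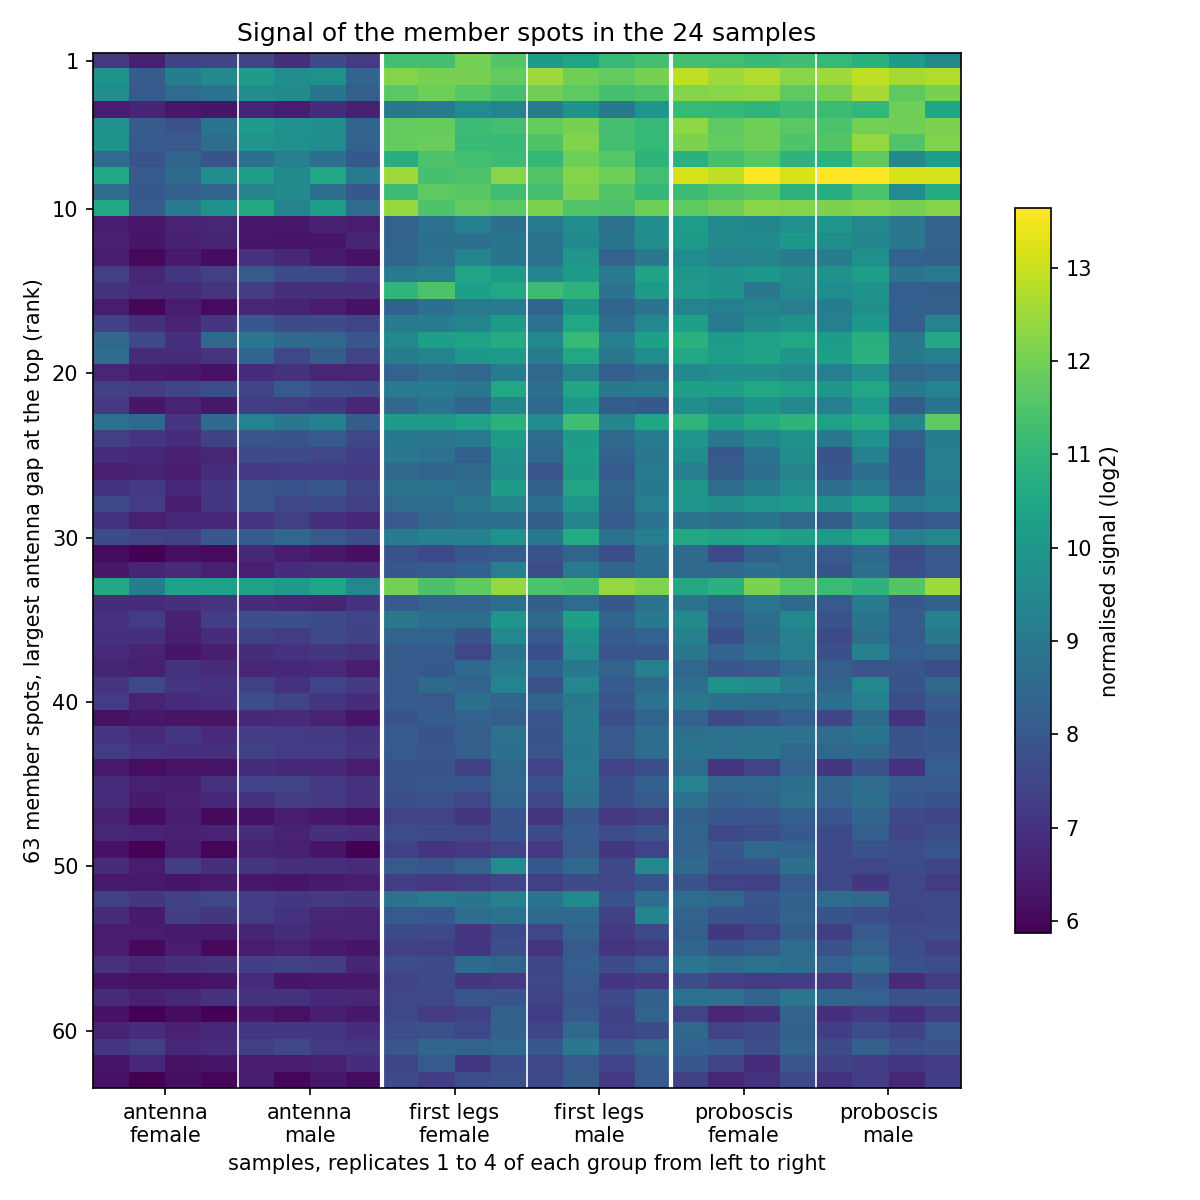
Normalised log2 signal (colour) of the 63 member spots (rows, ordered by the antenna gap with the largest at the top) in the 24 samples (columns, 4 replicates per group). Within every row the 8 antenna columns are darker than the 16 others, while the leg and proboscis columns overlap in most rows.

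The gap between the antenna and the nearer tissue had a median of 1.34 on the log2 scale of the rule and reached 3.28. It was 2 or more for 15 members, from 1 to 2 for 27 and under 1 for 21. In the class with a gap of 2 or more the median of the antenna means was 8.42, against 11.26 in the legs and 10.94 in the proboscis, and 9 of the 15 stood in the brightest 10% of the antenna. In the class under 1 the medians were 6.74, 7.78 and 7.91, and 0 of 21 stood there. At the threshold, the members just inside had gaps of 0.703 and 0.704, and the spots just outside had 0.696 and 0.654. On the scale of the rule, the highest antenna value and the lowest value of any other sample were as near as 10.61 and 10.62. For some members 1 sample thus decided membership. On the normexp values used for the levels, the room between them ran from 0.01 to 2.10 with a median of 0.39. There the 8 antennae still lay below the other 16 samples for all 63 members (0.465% of all spots), which repeats a condition of the rule on the same samples.

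Turned to the other tissues, the same rule found 11 spots low in the legs alone and 10 low in the proboscis alone. Turned upside down, it found 134 spots high in the antenna alone, 113 high in the legs alone and 44 high in the proboscis alone. These counts describe the arrays and were not tested against each other.

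Spot 10821 (row 51, column 71) had the largest gap. Its level was 7.15, 6.54, 7.41 and 7.48 in the 4 female antennae and 7.48, 6.94, 7.65 and 7.23 in the 4 male ones. In the legs it was 11.32, 11.36, 12.01 and 11.56 in females and 10.14, 10.46, 11.12 and 11.36 in males, and in the proboscis 11.36, 11.30, 11.10 and 11.24 in females and 11.06, 10.84, 10.12 and 9.56 in males. Every leg and proboscis sample stood well above every antenna, and the lowest of them were male. Before normalisation, its background-subtracted signal in the Cy3 channel was 136 to 259 intensity units over 4 antennae, 1414 to 2945 over 4 leg samples and 1302 to 3115 over 4 proboscis samples. The fitted difference was −3.91 ± 0.20 (SE, 8 samples per tissue) for antenna minus legs and −3.36 ± 0.16 for antenna minus proboscis.

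Spot 10037 (row 47, column 147) had the second largest gap and was bright in every tissue, the antenna included. Its antenna values were 8.11 at the lowest, 9.63 at the median and 10.18 at the highest, against 11.76, 12.05 and 12.51 in the legs and 12.26, 12.66 and 12.89 in the proboscis. The antennae stood apart from the rest, and within the antenna female replicate 2 and male replicate 4 were the lowest, at 8.11 and 8.42. The fitted differences were −2.85 ± 0.22 from the legs and −3.38 ± 0.18 from the proboscis.

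Over all 63 members the fitted antenna minus legs difference ran from −3.91 to −0.82 with a median of −1.72, and antenna minus proboscis from −4.57 to −0.84 with a median of −1.81. The medians over all spots were −0.00 and −0.01. All 63 members were called lower (limma, Benjamini-Hochberg adjusted p under 0.05 over 22575 spots) in each contrast, against 5.84% of all spots for antenna against legs and 7.4% for antenna against proboscis. These contrasts chose the members, so nothing is read from the counts.

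**Figure D2:**
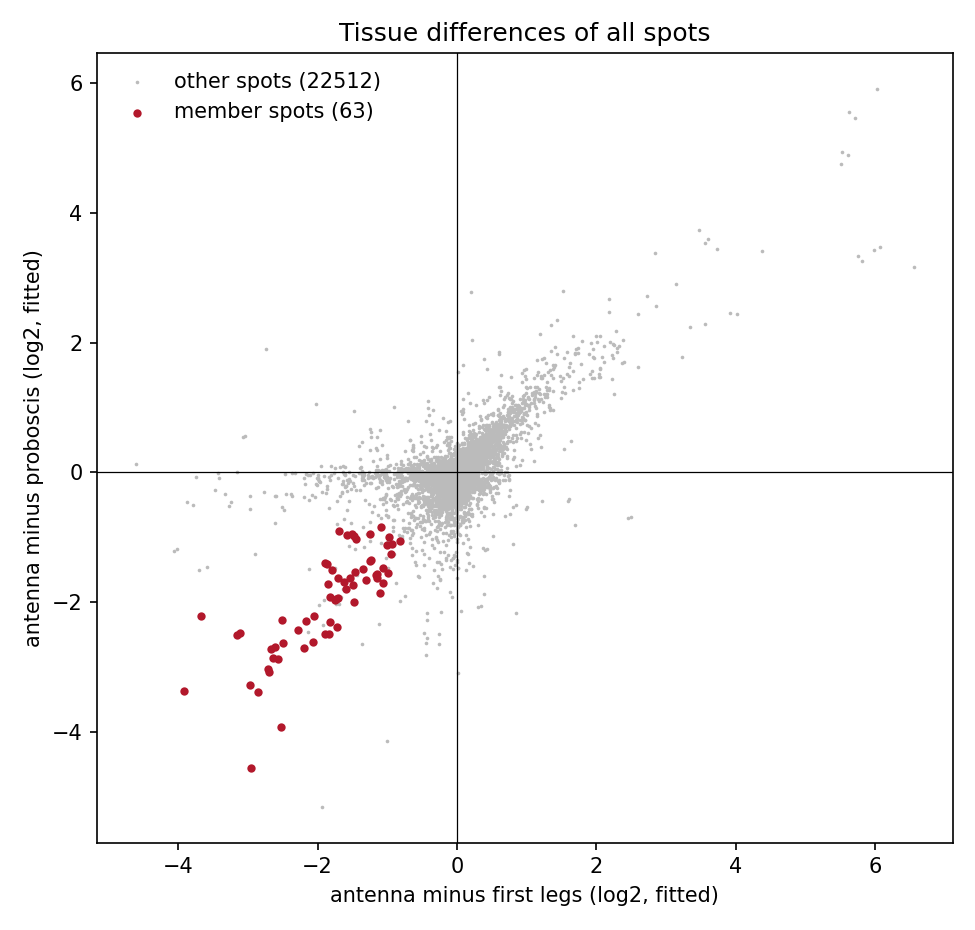
Fitted antenna minus first legs difference (horizontal axis, log2) against antenna minus proboscis (vertical axis, log2) for all other spots (grey) and the 63 members (red). The members fill a band along the diagonal at the lower left, from about −0.82 to −3.91 on the horizontal axis.

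The array pairs gave a direct view of the same values. On 6 arrays an antenna sample shared the array with a leg or proboscis sample, and 63 of 63 members were lower in the antenna channel on each of them, as the rule requires. The median difference was −2.23, −2.15 and −1.68 on the arrays with the antenna in Cy3, and −2.11, −0.95 and −0.94 on those with the antenna in Cy5. The smallest of these came from the low set with the antenna in Cy5.

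Dye moved with these sizes. On the low set the members were brighter in Cy5, with a median dye effect of 0.56 (63 of 63 members, 0.14 to 1.15), where the median of all spots was 0.04 and 57.7% were brighter in Cy5. This was not particular to the members. Spots that the same rule found low in the legs or in the proboscis had low-set medians of 0.56 and 0.69. Those high in the antenna, the legs or the proboscis had 0.30, 0.47 and 0.26. On the high set the members' median dye effect was −0.06, with 29 of 63 brighter in Cy5 (52.4% of all spots). On the 3 low-set arrays whose channels held the same tissue, the median of Cy3 minus Cy5 over the members was −0.93 and −0.69 in the legs and −0.55 in the antenna, and on the high-set array it was 0.08 in the proboscis. Each of these arrays set a female sample against a male one, so dye and sex differed together. For −0.93 the female sample was in Cy3, and for −0.69 it was in Cy5. Within the Cy3 samples alone the members' median was −1.39 for antenna minus legs and −1.67 for antenna minus proboscis. The Cy5 samples gave −1.89 and −1.80. Within the low set the medians were −1.71 and −1.68, and within the high set, which held 1 leg sample, −1.70 and −1.88. All 63 members lay below 0 in every such subset. Within 1 dye this follows from the rule. The values within a set were adjusted for dye, so the rule does not strictly fix their sign. They come from the samples that chose the members, so only the sizes are read.

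**Figure D3:**
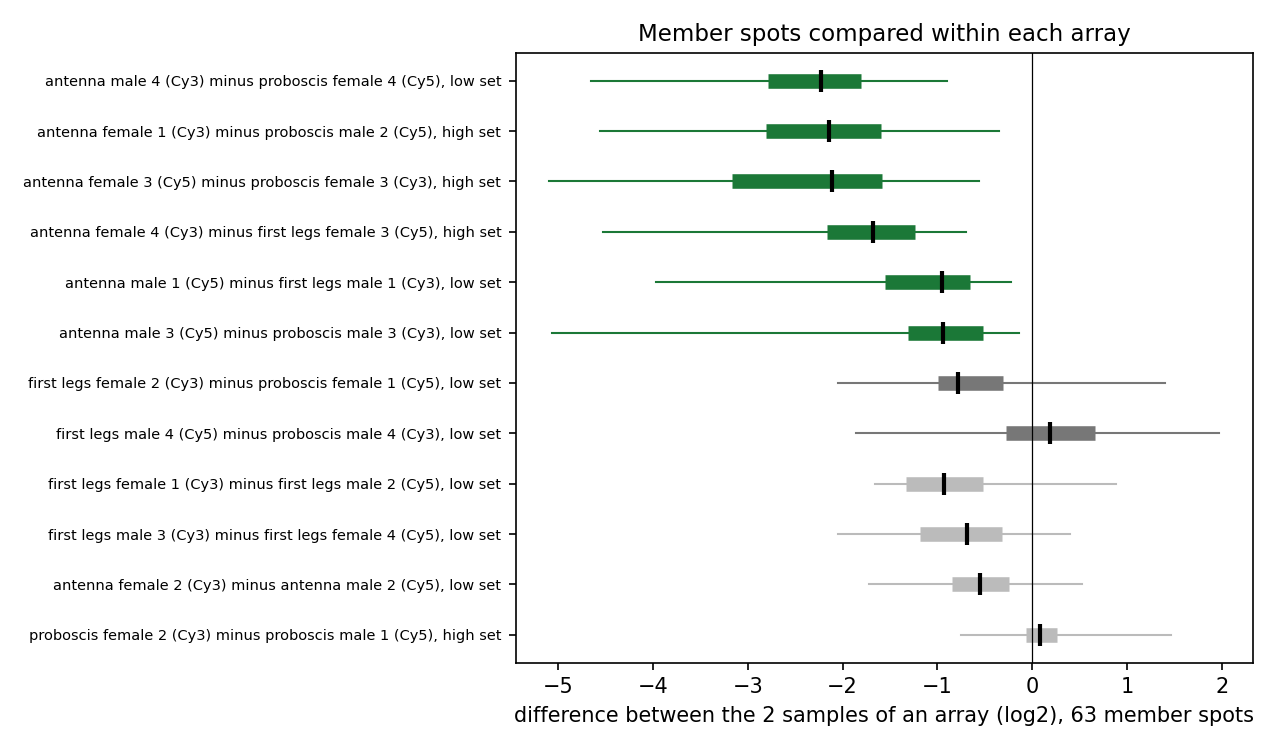
Difference between the samples of each of the 12 arrays over the 63 members (log2), with the full range as a thin line, the middle of the distribution from quartile to quartile as a thick bar and the median as a black mark. The 6 arrays that set an antenna against another tissue (green) lie wholly below 0, and the arrays with legs against proboscis (dark grey) or the same tissue in both channels (light grey) cross 0.

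Between the first legs and the proboscis the members differed in both directions. The fitted legs minus proboscis difference ran from −1.61 to 1.46 with a median of −0.16, it was above 0 for 17 members and below 0 for 46, for 26 members it lay within 0.25 of 0, and for 19 it exceeded 0.5 in size. The limma test called 9 members higher in the legs (0.41 to 1.46), against 4.98% of all spots, and 12 higher in the proboscis (−1.61 to −0.41), against 4.96% of all spots. The other 42, at −0.60 to 0.55 with a median SE over the members of 0.17, were not called, which does not show them to be equal. The rule limits the size of this contrast, so the counts describe the members. Fitted within females, with dye as the only adjustment, the median was −0.32 and 48 members lay below 0. Within males it was 0.10 and 26 lay below 0. On the arrays that set legs against proboscis the median was −0.79 (females, legs in Cy3) and 0.19 (males, legs in Cy5). The 8 leg values lay above all 8 proboscis values for 0 members (1.12% of all spots), and the reverse held for 2 (0.669% of all spots).

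Spot 6939 (row 33, column 59) showed the largest proboscis excess. Its values were 6.33 at the lowest, 6.52 at the median and 6.85 at the highest in the antenna, 8.95, 9.26 and 9.97 in the legs, and 10.46, 11.06 and 11.92 in the proboscis. The 3 tissues formed separate steps with no overlap, and the legs minus proboscis difference was −1.61 ± 0.17 (SE, limma).

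Spot 10523 (row 49, column 203) had the highest mean of all members and the next proboscis excess. It read 8.10, 9.60 and 10.54 (lowest, median, highest) in the antenna, 11.30, 11.72 and 12.51 in the legs and 12.89, 13.15 and 13.64 in the proboscis. These steps did not overlap either, although the antennae alone spanned more than 2 log2 units. The fitted legs minus proboscis difference was −1.40 ± 0.23, and it was −0.82 after scaling to 1 median and −0.40 after cyclic loess normalisation, where it was not called (limma adjusted p = 0.112 and 0.245).

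Spots 5959 (row 28, column 154) and 14134 (row 66, column 159) lay at the opposite end, with the largest leg excess. Spot 5959 read 6.80, 6.94 and 7.22 (lowest, median, highest) in the antenna, 8.83, 10.68 and 11.47 in the legs and 8.16, 9.61 and 10.06 in the proboscis. Spot 14134 read 7.10, 7.20 and 7.51 in the antenna, 7.81, 8.85 and 9.56 in the legs and 7.56, 8.38 and 8.62 in the proboscis. Legs and proboscis overlapped for both spots, and male legs replicate 3 was the lowest leg sample in each, at 8.83 and 7.81. The fitted legs minus proboscis differences were 1.46 ± 0.30 and 0.79 ± 0.17, and without a dye term spot 14134 was at 0.67 and not called (limma adjusted p = 0.107). Among all spots each was the other's closest profile, with a correlation of 0.969 over the 24 samples. Each profile was first centred within each dye, and the samples still share arrays.

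Spots 4229 (row 20, column 144) and 8355 (row 39, column 185) had the smallest leg and proboscis differences on the scale of the rule. Spot 4229 read 8.02, 8.57 and 9.41 in the legs and 7.95, 8.65 and 9.15 in the proboscis, against 6.56, 6.86 and 7.33 in the antenna. Spot 8355 read 7.44, 7.68 and 8.56 in the legs and 7.32, 7.70 and 8.48 in the proboscis, against 6.59, 6.84 and 7.14 in the antenna. Legs and proboscis covered nearly the same range for both. The fitted antenna differences were −1.85 ± 0.15 from the legs and −1.72 ± 0.13 from the proboscis for spot 4229, and −0.82 ± 0.13 and −1.06 ± 0.11 for spot 8355.

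**Figure D4:**
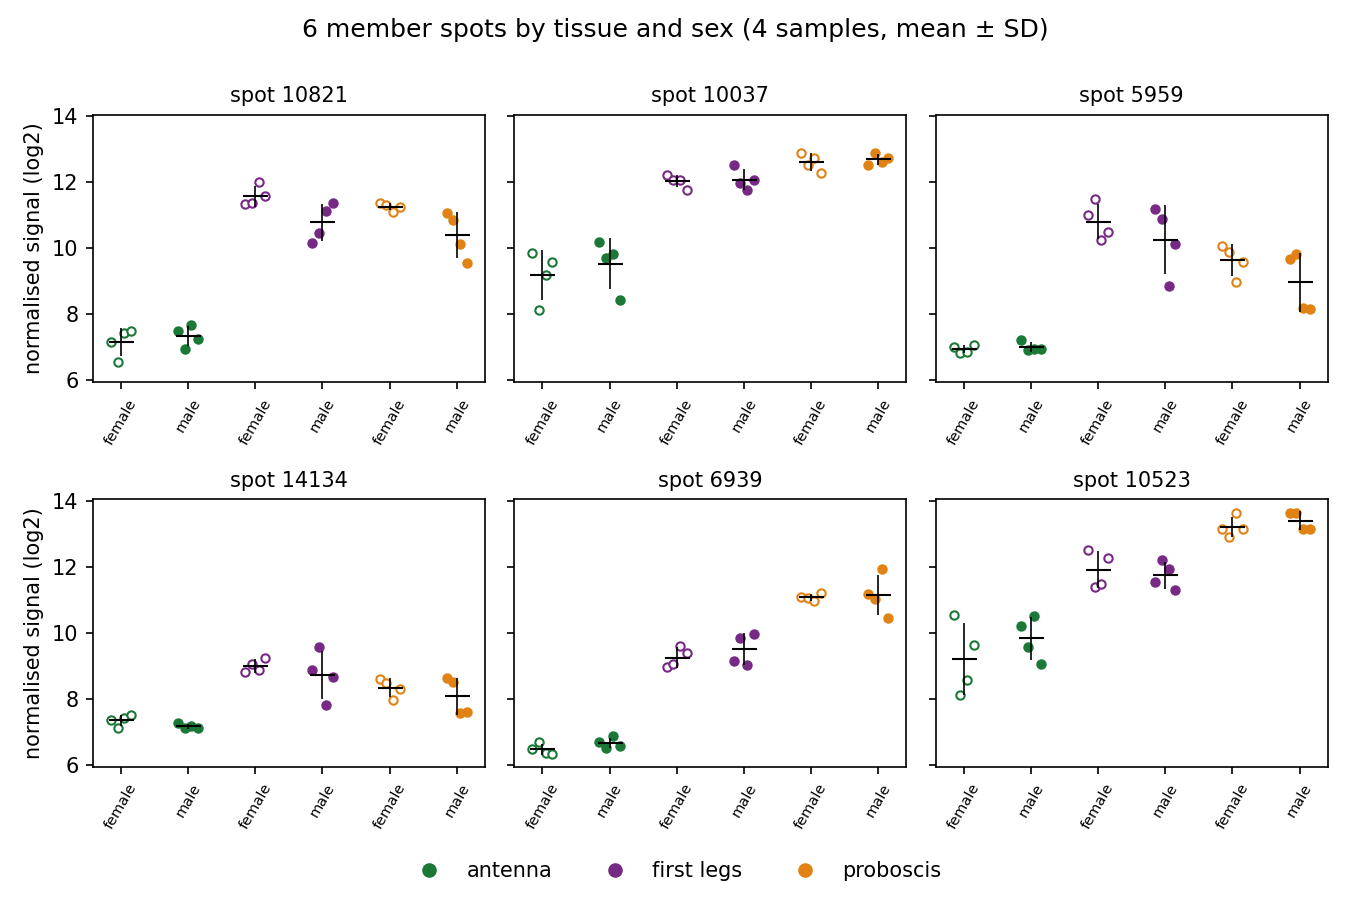
Normalised log2 signal of 6 member spots in the 4 samples of each tissue and sex (open circles female, filled circles male), with the mean (horizontal bar) and SD (vertical bar). Spots 6939 and 10523 rise from antenna to legs to proboscis without overlap, spots 5959 and 14134 have their highest means in the legs, and spots 10821 and 10037 show the largest antenna gaps.

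The contrasts between males and females took no part in choosing the members and were tested for every spot. No member was called in any tissue (limma, adjusted p under 0.05 over 22575 spots). The share of all spots called was 0.146% in the antenna, 0.173% in the legs and 0.0133% in the proboscis. At an unadjusted p under 0.05, 5 members stood out in the legs and 4 in the proboscis, against 6.77% and 3.2% of all spots. Leaving out male legs replicate 2 raised the leg count to 16 (1395 of all spots, against 1529 before). Over the other samples left out it was 5 to 7 (1212 to 2187 of all spots). The proboscis count was 3 to 8 with 1 sample left out (623 to 964 of all spots, against 723 before). It was 8 without male proboscis replicate 1 (815) and 7 without female legs replicate 4 (647). Scaling to 1 median gave 1 (289), no dye term gave 10 (571) and 1 dye effect for all arrays gave 28 (4271). In the antenna 13 were higher in males and 5 lower at that level, against 4.52% and 4.19% of all spots. The antenna total of 18 (1966 of all spots) was 3 after scaling to 1 median (1616) and 4 without a dye term (1270). It was 6 without the array block (602) and 10 with 1 dye effect for all arrays (1565). It was 10 without female proboscis replicate 3 (1607 of all spots) and 11 without female antenna replicate 3 (1696). With any other sample left out it was 12 to 23 (1437 to 2299). In a joint test of whether the sex difference varied between tissues 0 members were called (0.0354% of all spots), the smallest adjusted p was 0.166, and 14 had an unadjusted p under 0.05 (5.24% of all spots). That last count was 26 without male legs replicate 2 (1549 of all spots, against 1182 before). With any other sample left out it was 11 to 17 (965 to 1396). It was 5 after scaling to 1 median (683) and 29 with 1 dye effect for all arrays (3506).

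In the antenna the members' sex difference, male minus female, had a median of 0.19 and ran from −0.62 to 1.07, with a median SE of 0.23, and it was above 0 for 44 members. The members' median was 6.94, 6.70, 6.77 and 6.93 in the 4 female antennae and 7.25, 7.21, 7.16 and 6.97 in the 4 male antennae. The male medians were all higher than the female ones. For 13 members all 4 male values lay above all 4 female values (3.3% of all spots), and for 0 members the reverse held (1.76% of all spots). Sex moved with dye and array set here: 3 female antennae were labelled with Cy3 and 3 male ones with Cy5, and 3 female antennae but no male one came from the high set. Without male antenna replicate 4, the only male antenna in Cy3, the members' median sex difference was −0.05.

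Spot 10330 (row 49, column 10) had the smallest p among the members in the antenna and in the joint test. It read 6.67, 6.55, 6.999 and 6.80 in female antennae and 6.71, 6.72, 6.80 and 6.48 in male antennae. The sexes overlapped, with means of 6.76 ± 0.19 and 6.68 ± 0.14 (SD, n = 4 each). After dye, array set and line number were taken into account the fitted difference was −0.47 ± 0.10, with a limma adjusted p = 0.0737. Without male antenna replicate 4 it was −0.63 and called (limma adjusted p = 0.0102). Of 36 alternatives 3 called it, and its smallest size among them was −0.07.

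In the legs the members' median sex difference was −0.03, from −0.57 to 0.77, with a median SE of 0.19. Spot 17755 (row 83, column 125) had the smallest p. Its leg values were 8.33, 8.77, 9.21 and 8.75 in females and 9.08, 9.67, 8.80 and 9.69 in males. Male values were mostly higher, with overlap, and the fitted difference was 0.77 ± 0.17 with a limma adjusted p = 0.0968. Without female antenna replicate 3 it was called, at 0.81 (limma adjusted p = 0.0327). That was the only 1 of 36 alternatives to call it, and the difference ran from 0.61 to 0.93 over them. In the proboscis the same spot read 10.18, 9.53, 9.44 and 9.76 in females and 9.94, 9.51, 8.95 and 8.32 in males, and its joint test had a limma adjusted p = 0.357.

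In the proboscis the members' median sex difference was −0.01, from −0.998 to 1.04, and its median SE of 0.30 was the widest of the 3 tissues. The median difference was −0.49 with 1 dye effect for all arrays and −0.43 without a dye term. Within each array set all female proboscis samples carried one dye and all male ones the other, so the contrast depends on how the dye effects of the sets were estimated. The members' median was 9.29, 8.75, 8.85 and 9.18 in the 4 female samples and 8.51, 9.15, 8.04 and 8.29 in the male ones. For 4 members all female values lay above all male values (0.846% of all spots). Spot 7183 (row 34, column 88) had the smallest p. It read 8.76, 8.80, 8.38 and 8.93 in females and 8.36, 8.32, 7.80 and 7.85 in males, with the highest male value just under the lowest female one. The fitted difference was −0.47 ± 0.13, with a limma adjusted p = 1.00. With 1 dye effect for all arrays it was −0.73 (limma adjusted p = 0.00353), the only 1 of 36 alternatives to call it. In all 6 members were then called lower in males. That setting also called 517 of the 22575 spots lower and 702 higher, against 3 lower and 0 higher before.

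The line number separated no member (0 called by limma, and 0% of all spots). The members' median difference, 89 minus 58, was 0.00, from −0.54 to 0.42, and 8 members had an unadjusted p under 0.05 (6.22% of all spots). That count was 3 to 10 with 1 sample left out (907 to 1634 of all spots, against 1405 before). It was 3 without female legs replicate 4 (1447) or male legs replicate 4 (965). It was 4 without male antenna replicate 4 (1274) or male proboscis replicate 4 (1034). Without male legs replicate 3 (1634) or male proboscis replicate 3 (907) it was 5. After scaling to 1 median it was 0 (1060), and without a dye term it was 2 (577). The median difference was −0.26 after scaling to 1 median and −0.15 after cyclic loess normalisation. Spot 1095 (row 6, column 20) had the smallest p, with a difference of 0.42 ± 0.11 (SE) and a limma adjusted p = 0.797.

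Several members came as near-copies of each other on the array, a pattern noticed in the data and not used by the rule. For 23 of the 63 members (36.5%) the spot with the most similar profile among all spots lay 79 or 80 rows away, and the same held for 453 of the 2257 brightest spots (20.1%). In 8 pairs both spots were members and each was the other's closest profile. These 16 spots were 16995 to 17065 spot numbers apart within a pair. Centred within each dye, partners correlated at 0.970 to 0.995 over the 24 samples. Without centring they differed by a mean of 0.09 to 0.22 log2 units per sample. The median over all pairs of members was 0.97. Partners were picked as closest profiles over these same samples, so their closeness is part of the choice. Members 11342 and 17893, also each other's closest profile, lay 31 rows apart. They correlated at 0.991 and differed by a mean of 0.18. The files do not say whether spots 79 or 80 rows apart carry the same probe. Counting each of the 8 pairs once leaves 55 members.

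Spots 708 (row 4, column 63) and 17755, the leg spot described above, form 1 such pair. Spot 708 was named after its values were seen. Its leg values were 8.34, 8.75, 8.74 and 8.89 in females and 8.87, 9.57, 8.89 and 9.71 in males. The largest gap to spot 17755 in a leg sample was in female replicate 3, at 8.74 against 9.21. The male minus female leg difference was 0.73 ± 0.17 for spot 708 (limma adjusted p = 0.159) and 0.77 ± 0.17 for spot 17755. Across the 8 pairs the partners' fitted differences lay 0.01 to 0.17 apart for antenna minus legs and 0.02 to 0.12 for antenna minus proboscis. For the sex difference in the legs they lay 0.01 to 0.22 apart. The same samples chose the partners for their likeness, so nothing further is read from these distances.

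**Figure D5:**
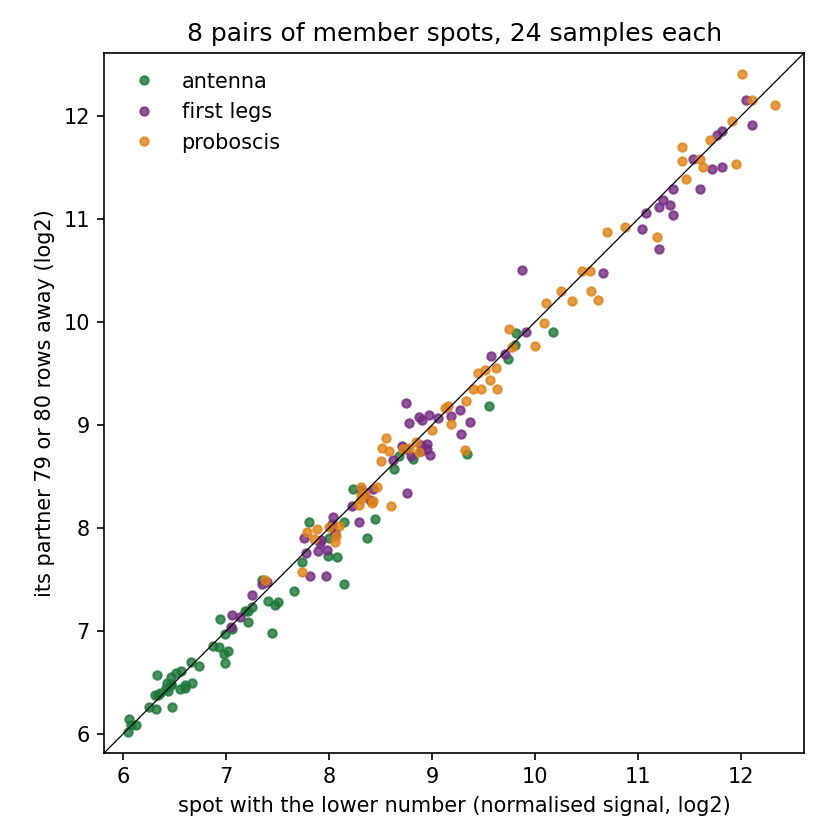
Normalised log2 signal of the spot with the lower number (horizontal axis) against its partner 79 or 80 rows away (vertical axis) for 8 pairs of members in 24 samples, coloured by tissue. The points follow the line of equality over the whole range of signal, with mean differences of 0.09 to 0.22 per pair.

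The members also varied together within groups. After group, dye, array set and line number were subtracted, the correlation between members over the 24 samples had a median of 0.31 over 1953 pairs, with quartiles of −0.03 and 0.55. The median residual over the members was highest in male proboscis replicate 2, at 0.41, and male legs replicate 2, at 0.36. It was lowest in male proboscis replicate 3, at −0.24. The members therefore do not count as independent measurements of a sample.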

How the data were processed

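RNA signals of 24 samples were read from 1 scanner file per sample. Mean spot and mean local background brightness are linear intensity values of 1 dye channel without normalisation, per the file headers, and the deposited quality score of each spot has no stated meaning. The deposited value table holds the natural log of mean signal minus background, differing from the scanner files by at most 9e-08. It was used as an alternative, and 0 of its columns belong to other samples. The software behind the spot brightness was not given in the sources used here.

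Background was corrected with normexp (offset 50), and log2 values were quantile normalised over all samples. A limma model of all 24 samples had 6 group means, a Cy5 effect for each array set, array set, line number, the array as a random block (correlation 0.552, 14 residual degrees of freedom) and a variance trend. Tests were two-sided, with Benjamini-Hochberg adjustment over 22575 spots and calls under 0.05. The arrays were inferred from identical quality scores, and the sets from the widest gap (0.126) between their channel correlations. The model was checked on simulated data.

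The members and lists were chosen with earlier results of these data known. The separate dye effect for each array set was chosen in the same way. Those results had shown that calls with 1 dye effect for all arrays depended on that term. Named spots are those with the largest gaps, the extreme and smallest leg and proboscis differences, the highest means and the smallest p of each tested contrast. No table pairs spots with genes, so the planned gene and marker lists, including the check of the tissues by their markers, could not be used, and no sequence is printed. Alternatives changed the background, normalisation, dim spots, dye, line, trend and block terms, and left out each sample in turn. Computation used limma 3.58.1 with statmod 1.5.0 in R 4.3.3, and Python 3.11.15 with numpy 2.4.6, pandas 2.3.3 and matplotlib 3.10.9.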

Additional observations from a re-analysis of the deposited data

Results flagged for a closer look

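The check covered 78 groups of 4 values, from the named spots and from the median over the members. In 2 of them a sample lay far from the others relative to the range of its group. Chance alone flags about 1 in 20 such groups. Spot 5959 was at 7.22 in male antenna replicate 1, while the other 3 male antennae were at 6.91 to 6.94. Spot 8355 was at 6.84 in male antenna replicate 4, while the other 3 were at 7.10 to 7.14. Male antenna replicate 4 was the only male antenna labelled with Cy3.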

How the results depend on the processing

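The rule kept 42 to 86 spots under 9 other settings and 56 to 68 when 1 sample was left out. Without background correction the members' median was −1.22 for antenna minus legs and −1.27 for antenna minus proboscis. Leaving out 1 sample gave −1.85 to −1.55, −1.91 to −1.71 and, for legs minus proboscis, −0.25 to −0.08. The count of 21 members called between legs and proboscis was 9 after scaling to 1 median (606 of all spots higher in legs and 615 lower, against 1124 and 1119 before). Without a dye term it was 7 (463 and 430). With 1 sample left out it was 13 to 25. It was 13 without female proboscis replicate 1 (843 and 843) and 25 without male legs replicate 2 (1078 and 1117). In the antenna 1 member was called between the sexes from the deposited value table (32 of 22410 spots higher in males and 5 lower). Without a variance trend it was 1 (39 and 6), against 0 before (29 and 4). With 1 sample left out it was 0 to 2. It was 1 without female replicate 2 (21 and 8) and 2 without male replicate 4 (39 and 5). In the legs the count with 1 sample left out was 0 to 1. It was 1 without female antenna replicate 3 (33 of all spots higher in males and 3 lower, against 34 and 5 before). With 1 dye effect for all arrays 6 were called in the proboscis (702 of all spots higher and 517 lower) and 4 in the joint test (27 of all spots, against 8 before). The joint test called 0 to 1 with 1 sample left out, with 1 without male antenna replicate 4 (13 of all spots). The proboscis and line counts stayed at 0 there. The cause of these changes was not tested. Among the named spots no called difference changed direction under the alternatives run. For the other members the direction of the leg and proboscis difference was not followed from setting to setting.

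The labels do not say that a replicate number marks shared material. Residuals of same-numbered samples correlated at −0.37 to 0.60 (median 0.18) and those of other samples at −0.65 to 0.73 (median −0.09). Not every same-numbered pair correlated positively, so the numbers were not used to pair samples. With the replicate number as a block, 19 members were called between legs and proboscis (1094 of all spots higher in legs and 1157 lower) and 0 between the sexes in each tissue and in the joint test, and the medians were −1.68, −1.76 and −0.16.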
